A study of Mus musculus with 3 samples.

Results

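The microRNAs described here are miR-423, miR-744, miR-345 and miR-187, read from the mouse hairpins Mir423, Mir744, Mir345 and Mir187, which are 4 of the 1142 hairpins searched. They were chosen by name, with their read counts, arm balance and ratio between the libraries already known, so those values are given as a description and with no test. A read was counted for a hairpin when its insert, the part before the 3' adapter, was 18 to 25 nt long and matched the hairpin exactly or with 1 to 2 bases at its 3' end that the hairpin does not encode (untemplated bases). By that rule the 4 hairpins had 14003 reads within their arms in the library labelled siSrf1 and 29314 in the library labelled siSrf2, which were 0.266% and 0.639% of all miRNA reads. GC content, the share of G and C bases, was at least 60% in the main insert of miR-423-3p, miR-744-5p, miR-345-3p and miR-187-5p. It was 56.5% in miR-423-5p and 59.1% in miR-345-5p and miR-187-3p, against a median of 47.8% over 257 measured arms. The name GC-rich thus held for all of them relative to the median and for 4 of the 7 measured arms at 60% or more. The main insert is the arm's most frequent exact match. That of miR-345-3p was at 61.9%, against 59.1% in its annotated sequence.

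The study sequenced small RNA of HL-1 cells, a mouse cell line derived from atrial cardiomyocytes, 48 h after transfection with short interfering RNA (siRNA). Each transfection used 9 µl of 20 µM siRNA and a lipid reagent. The gene Srf makes serum response factor, which binds and drives many promoters of cardiac and smooth muscle. Of the 3 titles, siSrf1 and siSrf2 were used, with 1 library each; another, under the title siNon, is not analysed here. Titles and siRNA entries of these records disagree: the siSrf1 title stands beside the entry Srf si2, the siSrf2 title beside the entry siNon, and the siNon title beside the entry Srf si1. Groups here follow the titles, and no difference below is read as an effect of Srf, since the labels leave unclear which siRNA each library received.

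The deposited libraries held 14911499 reads of 36 nt under siSrf1 and 14518157 under siSrf2, with 5269551 and 4586680 miRNA reads. Cardiac miR-1a-3p made up 62.7% and 51.6% of miRNA reads, and cardiac miR-499-5p 1.39% and 1.38%, while liver miR-122-5p had 37 and 60 reads, skeletal muscle miR-206-3p 23 and 15 and epithelial miR-200a-3p 18 and 10. Of the other cardiac markers, miR-133a-3p was at 0.116% and 0.241%, and miR-208a-3p had 65 and 60 reads. Endothelial miR-126a-3p had 1566 and 1230 reads and blood miR-223-3p 154 and 138, while miR-145a-5p of smooth muscle and fibroblasts had 673 and 2807; the part of the miR-1a-3p and miR-145a-5p differences in the results below was not tested. In bulk RNA, fewer cells of a type and less RNA per cell cannot be told apart. Since each title has only 1 library, differences could not be checked against replicates. Every interval below is a 95% interval for counting error only. It takes reads as independent molecules, which those of a PCR-amplified library are not, so it can be too narrow.

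A microRNA hairpin is cut by Drosha and then Dicer into a duplex of a 5p and a 3p strand, 1 of which is usually kept by an Argonaute protein to repress messenger RNAs. Bases 2 to 8 from the 5' end, the seed, select the targets, so a shift of the 5' end by 1 base gives another seed. Enzymes such as terminal uridylyltransferases add bases to the 3' end, which then no longer match the genome. In people, plasma miR-423-5p has been studied as a marker of heart failure.

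The mature sequences that RefSeq gives for these hairpins (build GRCm38.p6) are printed first, with the seed in capitals, because the 5' and 3' ends below are read against them. The table matched 3 of the 4 hairpins, all but Mir187.
miR-423-5p: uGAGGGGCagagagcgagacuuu
miR-423-3p: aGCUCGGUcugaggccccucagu
miR-744-5p: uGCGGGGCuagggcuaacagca
miR-744-3p: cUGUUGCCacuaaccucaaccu
miR-345-5p: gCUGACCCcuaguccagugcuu
miR-345-3p: cCUGAACUaggggucuggagac
Among the 1581 mature miRNA names in the RefSeq table used here, which does not hold every mouse miRNA, the seed of miR-423-5p was found in miR-6921-5p, and those of the other measured arms were found in no other entry.

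The inserts that miR-345 showed most often were not the annotated ones, so the forms with the most reads are printed too, untemplated bases in capitals where the name says tail and the seed in capitals otherwise.
miR-345-5p, main 5' end: uGCUGACCccuaguccagugcu
miR-345-5p, annotated 5' end: gCUGACCCcuaguccagugcu
miR-345-3p, main 5' end: cCCUGAACuaggggucuggag
miR-345-3p, annotated 5' end: cCUGAACUaggggucuggag
miR-345-3p, main 5' end with tail: cccugaacuaggggucuggagU
miR-345-3p, annotated 5' end with tail: ccugaacuaggggucuggagU
miR-744-5p with a U tail: ugcggggcuagggcuaacagcaU
miR-744-5p with an A tail: ugcggggcuagggcuaacagcaA
In a search of the mouse genome (NCBIM37), each listed isoform with a tail had 0 exact matches and each without a tail had 1.

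Mir423 lies on chromosome 11 at 76891566 to 76891674, minus strand, in an intron of Ccdc55 on the same strand, and Mir744 on chromosome 11 at 65548235 to 65548334, minus strand, in an intron of Map2k4, which encodes a kinase of the JNK pathway. Mir345 lies on chromosome 12 at 110075183 to 110075278, plus strand, outside annotated genes and 1090 nt from Slc25a29, a mitochondrial carrier gene on the opposite strand. Mir187 lies on chromosome 18 at 24587611 to 24587671, minus strand, outside annotated genes, and the nearest protein-coding gene was 41691 nt away. Coordinates are NCBIM37.

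miR-423-5p was the most abundant arm of the 4 hairpins. It had 8055 reads, or 1529 RPM (reads scaled to a miRNA total of 1000000), in the library labelled siSrf1, against 18658 reads, or 4068 RPM, in the library labelled siSrf2. Its log2 ratio, siSrf1 minus siSrf2, was -1.41 (interval -1.45 to -1.37). miR-744-5p followed with 4043 and 7282 reads, 767 and 1588 RPM, and a log2 ratio of -1.05 (-1.10 to -0.99). Both stood lower in siSrf1.

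The other arms had fewer reads. miR-423-3p had 1155 and 1247 reads, a log2 ratio of -0.31 (-0.43 to -0.19). miR-345-3p had 342 and 926 reads, 64.9 and 202 RPM, a log2 ratio of -1.64 (-1.82 to -1.46). miR-345-5p, which had 38 and 309 reads, stood lowest of all 257 measured arms at -3.21 (-3.75 to -2.73). For miR-187-3p the counts were 262 and 478 with a log2 ratio of -1.07 (-1.29 to -0.85), and for miR-187-5p 108 and 414 with a log2 ratio of -2.13 (-2.46 to -1.83). All 7 arms were thus lower in siSrf1 when scaled to miRNA reads, miR-423-3p the least so. Its sign turned under other scalings: its log2 ratio was 0.17 with TMM factors, 0.12 with median-of-ratios size factors and 0.065 on the total without miR-1a-3p. Those scalings moved the median of all arms by 0.48, 0.43 and 0.38.

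**Figure D1:**
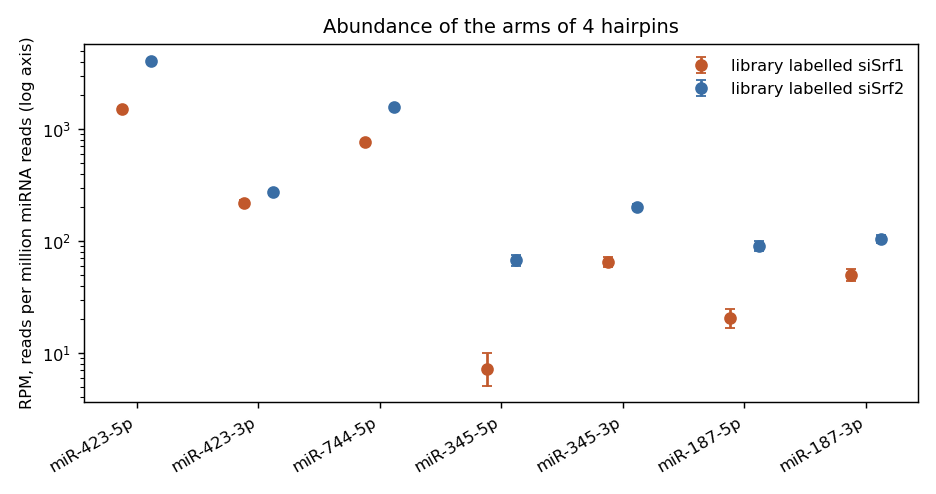
RPM (log axis) of the 7 measured arms in the libraries labelled siSrf1 and siSrf2, with bars for the 95% Poisson interval of the count. Every arm lies lower in siSrf1, from 1529 against 4068 RPM for miR-423-5p to 7.21 against 67.4 RPM for miR-345-5p.

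An arm was called past a size rule when its level differed 2-fold or more between the libraries and its interval did not reach 0; arms needed at least 50 reads summed over both libraries. By it 6 of the 7 arms were higher in siSrf2, all but miR-423-3p, beside 64 of all 257 measured arms, or 24.9%; 0% of them were called higher in siSrf1. The members were chosen with this ratio known, so nothing is read from the 6. With TMM factors the count was 3, beside 14.01% of all arms, and with median-of-ratios size factors 3, beside 15.2%. It was 4 on the total without miR-1a-3p, beside 16.3%, and 4 on the total of all inserts of 15 nt or longer, beside 21.4%. With exact matches only it was 5, beside 25.3% of the 233 arms then measured. Over all arms the median log2 ratio was -0.43, and 206 lay below 0 and 51 above.

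Other arms with a GC content of at least 60% were set beside the members. The 37 such arms had a median log2 ratio of -1.18, with 19, or 51.4%, past the rule toward siSrf2 and 31 below 0, while the 213 arms under 60% had a median of -0.33 and 39, or 18.3%, past it. The 6 with the most reads did not share a value: miR-351-5p was at -1.32, miR-99b-5p at -0.49, miR-143-5p at -0.39, miR-486-3p at -0.09, miR-92b-3p at 0.17 and miR-486-5p at 0.19. At 500 reads or more, the median of the GC-rich arms was -0.39. The median of arms under 60% was not taken at that cut, so the gap there is not known. A list of 10 miRNAs often used as references had a median of -0.24, and 1 of them, miR-425-5p with 38 and 81 reads and a log2 ratio of -1.28, was past the rule. The other 9 ran through miR-191-5p at -0.77, miR-93-5p at -0.51, miR-25-3p at -0.41, miR-186-5p at -0.31, miR-103-3p at -0.18, miR-16-5p at -0.17, miR-26a-5p at -0.16 and miR-24-3p at -0.16 to let-7a-5p at -0.08. These lay nearer to 0 than every member but miR-423-3p, apart from miR-425-5p. Members and list were chosen with earlier results known, so nothing is read from this contrast.

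**Figure D2:**
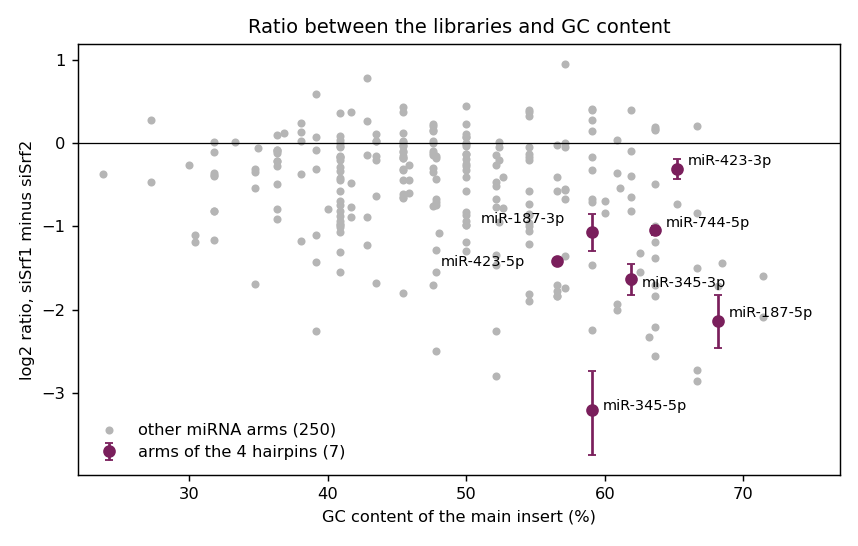
Log2 ratio, siSrf1 minus siSrf2, against GC content of the main insert in percent for 257 measured arms. Grey points are the other arms, and purple points are the 7 arms of the 4 hairpins with 95% counting intervals, which run from -0.31 for miR-423-3p to -3.21 for miR-345-5p.

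For the most-read arm of each hairpin, the 2 arms with at least 200 reads and the nearest log2 ratio over these 2 libraries were named. For miR-423-5p these were miR-676-3p at -1.47 and miR-470-5p at -1.34. For miR-744-5p they were miR-133a-3p at -1.05 and miR-187-3p at -1.07. For miR-345-3p they were miR-465a-3p at -1.68 and miR-542-3p at -1.69, and for miR-187-3p miR-183-5p at -1.07 and miR-182-5p at -1.08. Nearness over 2 libraries describes these values only.

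The balance between the arms differed among the hairpins. In Mir744 all reads within an arm were 5p, 4043 in siSrf1 and 7282 in siSrf2. Inserts overlapping the annotated miR-744-3p numbered 1 in siSrf1 and 0 in siSrf2, which allows up to 3 reads, or 0.0412% of the hairpin's reads. Mir423 was mostly 5p, with 87.5% of its reads (86.8 to 88.1) in siSrf1 and 93.7% (93.4 to 94.1) in siSrf2. In Mir345 the 3p arm held most reads, and the 5p share was 10% (7.17 to 13.5) in siSrf1 and 25.02% (22.6 to 27.5) in siSrf2. In Mir187 the 5p share was 29.2% (24.6 to 34.1) and 46.4% (43.1 to 49.7).

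In these libraries the 5p share was lower in siSrf1 in each of the 3 hairpins with both arms, which is a description, since the balance was known when they were chosen. As a log2 ratio of the arms this is -1.10 (-1.22 to -0.98) for Mir423, -1.59 (-2.10 to -1.07) for Mir345 and -1.07 (-1.45 to -0.70) for Mir187. Over 55 hairpins with both arms measured the median was -0.04, with 31 lower and 24 higher, so hairpins lay on both sides. The 5p share differed by a median of 1.67 percentage points over those 55 and by at least 10 points in 15; by size of that difference Mir187 ranked 5th, Mir345 7th and Mir423 20th. The level of the share in Mir345 and Mir187 depended on the tailed inserts. With exact matches only, the 5p share of Mir345 was 24.8% in siSrf1 and 52.3% in siSrf2, and that of Mir187 21.8% and 37.9%.

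The 5' ends set the seeds. miR-423-5p began at its annotated base in 98.7% and 99.1% of reads, and miR-744-5p in 97.1% (96.5 to 97.6) and 98.7% (98.5 to 98.98). A start 1 nt further in made up 2.89% and 1.26% of miR-744-5p. Most reads of each arm thus carried its annotated seed, with a minor second seed in miR-744-5p. The median arm of all 257 had 97.2% and 97.8% of its reads at its main start.

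miR-423-3p had a second start. Its annotated start held 81.7% and 79.9% of reads, and a start 1 nt earlier, with the seed AGCUCGG, held 17.1% and 19.2%. miR-345 showed the start 1 nt before the annotated one in both arms. In miR-345-5p this earlier start held 60.5% and 56.0% of reads and the annotated one 39.5% and 44.0%, which gives the seeds GCUGACC and CUGACCC. In miR-345-3p the earlier start held 55.3% and 58.6% and the annotated one 43.6% and 40.5%, with the seeds CCUGAAC and CUGAACU. Both libraries thus held a pair of seeds for each arm of miR-345, and the intervals of their shares overlapped between the libraries.

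Few reads were the annotated miR-345 sequences. The full annotated miR-345-5p had 1 read in siSrf1 and 3 in siSrf2, and the full annotated miR-345-3p had 0 and 0. In miR-345-5p the starts shared a 3' end: of reads with the earlier start 69.6% and 75.7% ended at the main end, and of those with the annotated start 86.7% and 89.0%. The forms therefore differ in length by 1 nt rather than by a shift.

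In miR-187-5p the whole insert moved instead. The main start held 67.6% and 68.4% of reads and a start 2 nt earlier held 31.5% and 29.2%, while 0 and 2 reads began between them. Of reads with the earlier start, 79.4% and 81.0% also ended 2 nt earlier, so both forms had 22 templated bases. miR-187-3p began at its main start in 86.3% and 84.3% of reads and 1 nt earlier in 13.7% and 13.2%, and of the earlier starts 94.4% and 77.8% ended 1 nt earlier.

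**Figure D3:**
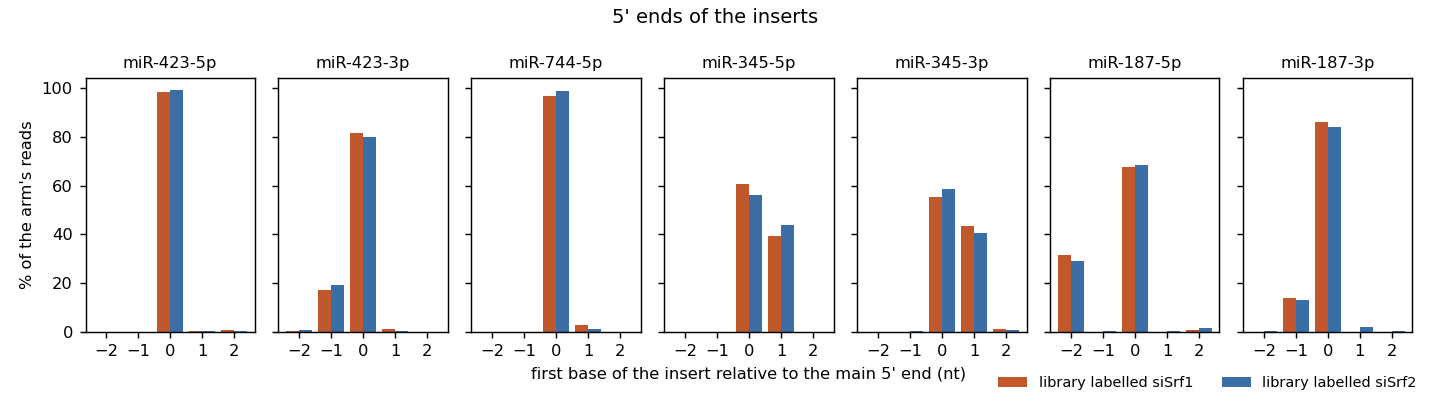
Percent of the reads of each arm by the first base of the insert, in nt from the main 5' end, in siSrf1 (left bars) and siSrf2 (right bars). miR-423-5p and miR-744-5p lie mostly at the main start, with at least 97.1% of reads, miR-345-5p and miR-345-3p divide between neighbouring starts, and miR-187-5p has a second start 2 nt earlier with 31.5% and 29.2%.

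miR-345-3p carried the most untemplated U. Of its reads, 70.8% (65.6 to 75.5) in siSrf1 and 73.2% (70.2 to 76.0) in siSrf2 had 1 to 2 untemplated bases. The first of these was U in 68.7% and 70.5% of all its reads. That ranked 1st of 257 arms in both libraries, where the median arm had 5.11% and 4.32%. The 257 include arms whose hairpin continues with U, where an added U cannot be seen. By the share with any untemplated base, miR-345-3p ranked 10th in siSrf1 and 11th in siSrf2. Among reads that ended at the main templated 3' end, 78.7% and 79.0% had a tail. After that end the hairpin continues with A and then C, so an added A cannot be told from the template there. Inserts with an untemplated U followed by that C numbered 0 and 0. Inserts whose templated bases reached that C numbered only 1 and 0. These counts therefore cannot tell an added U from a changed A.

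Both 5' ends of miR-345-3p were tailed alike. U came first in 68.3% of reads with the earlier start and 69.1% of reads with the annotated start in siSrf1, and in 70.0% and 71.2% in siSrf2. With its tail, the earlier-start form was the most frequent isoform of the arm, at 33.0% and 37.5% of reads. The arm partner miR-345-5p had tails on 13.2% and 11.97% of reads, mostly A; the next base of the hairpin after its main end is U, so an added U cannot be told from the template there.

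miR-187 came next. Tails were on 57.4% (47.5 to 66.9) and 61.1% (56.2 to 65.8) of miR-187-5p reads, with U first in 43.5% and 46.4% and A first in 13.9% and 14.01%. The main start of miR-187-5p was tailed in 65.8% and 70.7% of reads and the start 2 nt earlier in 38.2% and 38.0%. Their intervals did not overlap in siSrf2 (65.0 to 75.9 and 29.3 to 47.3), while in siSrf1 they did (53.7 to 76.5 and 22.2 to 56.4). In miR-187-3p 37.0% (31.2 to 43.2) and 44.8% (40.3 to 49.4) were tailed, with U first in 34.0% and 39.5%. After its main end the hairpin continues with A, so an added A cannot be seen there.

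The remaining arms were tailed less. U stood slightly above A in miR-744-5p and below it in both arms of miR-423. miR-744-5p had tails on 24.2% (22.9 to 25.5) and 26.3% (25.2 to 27.3) of reads, with U first in 12.6% and 12.9% and A first in 10.3% and 12.6%. miR-423-3p had tails on 20.4% and 19.3%, with A first in 10.8% and 12.1% and U first in 6.67% and 6.01%. miR-423-5p had tails on 7.03% (6.48 to 7.61) and 5.79% (5.46 to 6.13), A first in 6.54% and 5.39%. The share of miR-423-5p was thus higher in siSrf1, with counting intervals apart. After its main end the hairpin continues with U, so there too an added U cannot be seen.

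**Figure D4:**
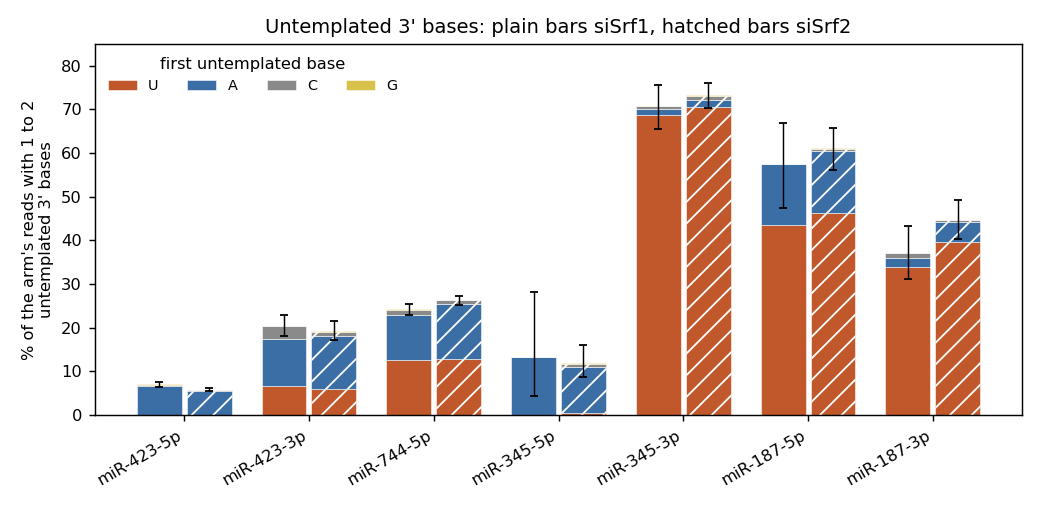
Percent of the reads of each arm with 1 to 2 untemplated 3' bases, stacked by the first untemplated base, in siSrf1 (plain, left) and siSrf2 (hatched, right); black bars are 95% intervals of the total. U makes up nearly all of the 70.8% and 73.2% of miR-345-3p and most of miR-187, while A leads in both arms of miR-423.

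The templated 3' ends were mostly at 1 position. miR-345-3p ended there in 85.1% of reads in siSrf1 and 86.8% in siSrf2, and miR-744-5p in 78.0% and 75.7%. miR-187-3p was divided, with 49.2% and 52.1% at its main end and 43.9% and 39.5% 1 nt before it. Tails in miR-187-3p were more frequent at that shorter end, on 50.4% and 59.8% of reads, than at the main end, on 24.8% and 34.5%. The next base of the hairpin is G after the shorter end and A after the main end, so the hidden tails differ between them.

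**Figure D5:**
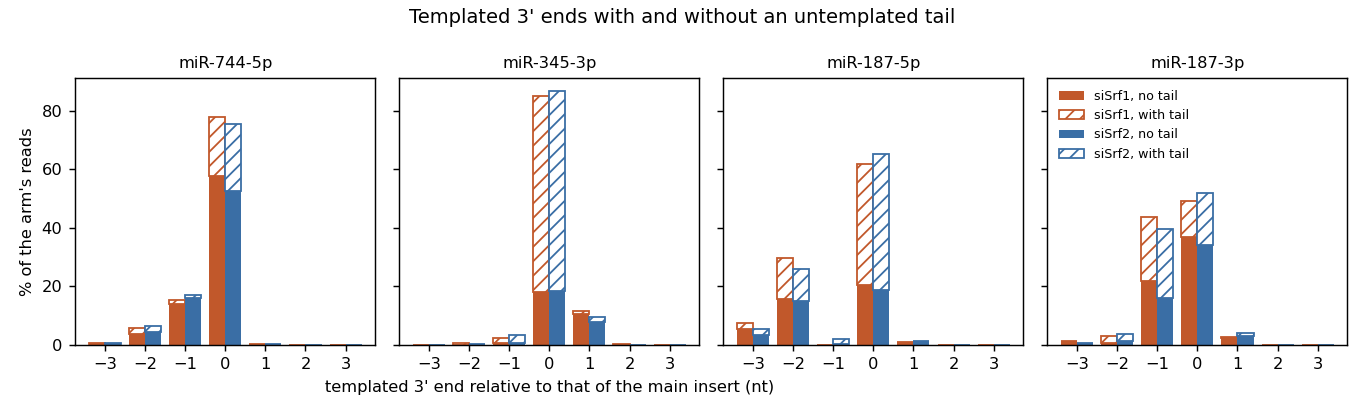
Percent of the reads of each arm by templated 3' end, in nt from that of the main insert, with tailed reads open and hatched and untailed reads filled, siSrf1 left and siSrf2 right. miR-345-3p has 1 main end, mostly tailed, while miR-187-3p has a second end 1 nt shorter.

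Lengths of miR-423-5p and miR-744-5p differed slightly between the libraries. The annotated 23 nt form held 71.0% (70.0 to 72.0) of miR-423-5p in siSrf1 and 73.1% (72.4 to 73.7) in siSrf2. A form of 24 nt held 7.36% and 8.84%, and a form of 22 nt 7.88% and 6.59%, each with intervals apart. The annotated 22 nt form of miR-744-5p held 55.6% (54.0 to 57.1) and 51.8% (50.7 to 53.0).

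Single-base differences inside the match were counted apart from tails. In miR-423-5p the reads with 1 substitution made up a median of 0.348% per position in siSrf1 and 0.30% in siSrf2, with a highest position of 0.798% and 0.518%. In miR-423-3p the highest was position 21, counted from 1 at the 5' end of the main insert, at 6.29% and 5.62%. These shares hold all changes at that position, of which A21C (in DNA letters) was the most frequent. In miR-187-3p position 15 was the highest, at 5.88% and 7.51%, from 6 and 13 reads. The part of sequencing error in the tailed shares was not tested. Tails of 3 bases, which the rule leaves out, had 129 and 140 reads in Mir423, 36 and 66 in Mir744, 18 and 68 in Mir345 and 25 and 32 in Mir187. Those of Mir423 include the 43 and 40 reads with a change at position 21 of miR-423-3p, since that position lies 3 bases from the 3' end. In an insert 1 nt shorter A21C would count as a CG tail, and miR-423-3p had 12 and 4 reads with CG tails.

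On the hairpin folds predicted by RNAfold, the main inserts of the arms paired with 3' overhangs of 1 to 3 nt. Those of Mir423 were 2 nt on the 3p arm and 2 nt on the 5p arm, those of Mir345 1 nt and 2 nt, and those of Mir187 3 nt and 3 nt.

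Outside the length window, inserts of 16 to 17 nt from Mir423 numbered 49 and 48, and those of 26 to 28 nt 6 and 12. For Mir744 they were 7 and 18, and 1 and 0; for Mir345 and Mir187 none of these counts was above 3. No insert matched the antisense strand of any of the 4 hairpins.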

How the data were processed

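Small RNA of HL-1 cells was sequenced, and the authors deposited each library as distinct 36 nt reads with their counts, not normalized. An aligner or build used by the authors was not given in the sources used here. The 3' adapter was located by its first 8 nt, or by at least 4 nt at the read's end. Inserts of at least 15 nt without N were kept. They were matched to 1142 hairpins (1005 from RefSeq, 137 further named ones from GENCODE on NCBIM37). An insert counted for an arm when its start lay within 2 nt and its templated end within 3 nt of the arm's most frequent exact insert; inserts that fitted several arms were shared equally.

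Ratios were scaled to the miRNA total with a pseudocount of 0.5 reads. Their intervals are exact binomial, conditional on the sum of both counts, and those of shares are Clopper-Pearson. Scaling alternatives used edgeR 4.0.16 (TMM) and DESeq2 1.42.0 (size factors), for factors only. ViennaRNA 2.7.2, scipy 1.17.1 and Python 3.11.15 were also used. Placement and the size rule were tested on simulated data.

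Named were all arms of the 4 hairpins, isoforms with at least 5% of an arm's reads and 10 reads, 2 arms nearest in ratio, the 6 most-read other GC-rich arms and the reference list. Members and lists were chosen with earlier results of these data known.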

Additional observations from a re-analysis of the deposited data

Results flagged for a closer look

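Inserts lying before the 5p arm of Mir744 numbered 18 in siSrf1 and 39 in siSrf2, above the 3 reads that a count of 0 allows. They belong to neither arm and entered no comparison. The main one, printed because its last base abuts the first base of miR-744-5p, had 15 and 23 reads.
Mir744, before the 5p arm: cacagugggcugggcaagg

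Reads with no adapter match that begin with the first 18 nt of a main insert were also left out of every count. For Mir423 they numbered 875 in siSrf1 and 1692 in siSrf2. For Mir744 there were 287 and 499, for Mir345 26 and 66, and for Mir187 109 and 161. All lie above 3 reads.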

How the results depend on the processing

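No paired analysis was possible because siSrf1 and siSrf2 are single libraries. For the same reason no replicate could be left out. Scaling moved the ratios most. With TMM factors the log2 ratios were -0.94 (miR-423-5p), 0.17 (miR-423-3p), -0.57 (miR-744-5p), -2.73 (miR-345-5p), -1.16 (miR-345-3p), -1.66 (miR-187-5p) and -0.59 (miR-187-3p). With median-of-ratios size factors they were -0.98 (miR-423-5p), 0.12 (miR-423-3p), -0.62 (miR-744-5p), -1.20 (miR-345-3p), -1.70 (miR-187-5p) and -0.63 (miR-187-3p). On the total without miR-1a-3p they were -1.04, 0.065, -0.67, -1.26, -1.76 and -0.69 in that order. On the total of all inserts of 15 nt or longer, which moved the median of all arms by 0.11, miR-423-5p was at -1.31 and miR-744-5p at -0.94. With exact matches only miR-423-5p was at -1.45. Of 84 such alternatives for the members' ratios 62 stayed within the counting interval.

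Arms past the size rule toward siSrf2 numbered 36 with TMM factors, 39 with size factors, 42 without miR-1a-3p and 19 at a minimum of 500 reads. Toward siSrf1 there were 3, 3 and 2 under those scalings. There was 1 on all inserts, with inserts of 20 to 24 nt, with exact matches, without sequences seen once, and at a minimum of 10 reads. Calls toward siSrf1 were then at most 7.69% of calls. The median of the other GC-rich arms was -0.71 with TMM factors and -0.39 at 500 reads. The median of the reference list turned to 0.23, 0.19 and 0.13 with TMM factors, size factors and without miR-1a-3p, and was -0.14 on all inserts, -0.29 with exact matches and -0.18 at 500 reads; the cause was not tested.

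With exact matches only, the 5p share was 89.1% in siSrf1 and 94.6% in siSrf2 for Mir423, 24.8% and 52.3% for Mir345, and 21.8% and 37.9% for Mir187. Counting any position on the arm's side gave 86.6% and 93.4% for Mir423. In each case the share stayed lower in siSrf1. Depth limits miR-345-5p most, with 38 reads in siSrf1.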
